A study of Mus musculus with 11 samples.

Results

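The 41 DNA replication genes described here encode the proteins that license origins, open the helix, copy the DNA, supply nucleotides and start S phase in mouse cells. They were taken as a named list and not by a cut on measured values, but with earlier results of these data known. By role they were grouped into 18 licensing genes, 15 polymerase and clamp genes, 4 nucleotide supply genes and 4 S-phase regulators. All 41 were found among the 20368 gene symbols of the expression tables, and all 41 passed the minimum of a mean of 1 FPKM (fragments per kilobase of transcript, scaled to the mapped fragments) in both tables.

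The study used C2C12, a mouse myoblast line labelled with the strain C3H, which divides in 10% fetal bovine serum and forms myotubes after a switch to 2% horse serum with insulin, transferrin and selenium. PolyA RNA was sequenced 4 h after the switch in 4 libraries. DRRi is the library labelled as RNA interference against the DRR, the distal regulatory region upstream of Myod1 whose enhancer RNA the study addresses, and GFPi is its control against GFP. pHAN_DRR1.2 carries the label of a pHAN construct with DRR sequence, and pHAN_GFP that of the matching GFP construct. All 4 share the line, the medium and the time. Sequencing after chromatin immunoprecipitation (ChIP-seq) gave lists of MyoD peaks (antibody C-20) and H3K4me1 domains (antibody ab8895) in proliferating myoblasts and in myotubes at 48 h, and MyoG peaks (antibody M-225) in myotubes alone. Each of these 9 groups held 1 sample, so no difference below has a replicate check, no p-value was computed, and a p- or q-value quoted from the authors' deposited tables rests on 1 library per condition. The labels do not say how the RNAi or the construct was delivered, in what share of cells, or in how many cultures.

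Before S phase, the origin recognition complex, Cdc6 and Cdt1 load the Mcm2 to Mcm7 helicase onto DNA, and geminin blocks Cdt1 afterwards. Cdc7 kinase, Mcm10, Cdc45 and the GINS complex turn the loaded helicase into a moving fork, where the polymerases work with the sliding clamp Pcna and its loader, the Rfc complex. Most of these genes are targets of E2F transcription factors and are known to be turned down when myoblasts leave the cell cycle, while MyoD and MyoG are best known for binding E-boxes of muscle genes.

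The cultures carried the marker genes of myoblasts, and markers of other cell types were low apart from Pparg, Runx2 and Nefl. The 7 measured myoblast markers summed to 441 FPKM in DRRi, 538 in GFPi, 1116 in pHAN_DRR1.2 and 908 in pHAN_GFP. The 9 myotube markers summed to 24.4, 48.6, 354 and 151 FPKM in the same order. Endothelial and blood markers summed to at most 0.118 FPKM in any library. Of the adipocyte, bone and neural lists, Pparg, Runx2 and Nefl carried most of the signal. Pparg ran from 7.62 FPKM in pHAN_GFP to 10.3 in GFPi, and Runx2 from 9.25 in pHAN_DRR1.2 to 12.7 in GFPi. Nefl lay between 7.97 FPKM in DRRi and 24.8 in pHAN_DRR1.2. The medians over all genes tested were 12.3 to 13.1 FPKM. Lep was listed at 0 in all 4 libraries. Summed FPKM over all genes ranged from 383311 to 411626, and the number of reads behind each RNA library is unknown.

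Replication genes were abundant at 4 h of differentiation in every library. Their median level was 29.5 FPKM in DRRi and 30.4 in GFPi, against medians of 13.1 and 12.9 over all genes tested. In the other table it was 17.2 FPKM in pHAN_DRR1.2 and 14.7 in pHAN_GFP, against 12.6 and 12.3. Pcna was the highest member in all 4 libraries, and Orc1 the lowest except in pHAN_GFP, where Tyms was lowest. Together the 41 genes made up 0.466% and 0.471% of the summed FPKM in DRRi and GFPi, and 0.274% and 0.243% in pHAN_DRR1.2 and pHAN_GFP.

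The members' medians and summed shares were thus lower in both pHAN libraries than in both RNAi libraries, which were normalized in separate tables. Single members overlapped for Cdt1, at 14.3 FPKM in pHAN_DRR1.2 and 13.9 in DRRi, and for E2f1, at 14.31 in pHAN_DRR1.2 and 14.29 in GFPi. With the GFP controls side by side, all 41 members stood lower in pHAN_GFP than in GFPi, by a median log2 of -0.99, from -1.59 for Ccne2 to -0.28 for E2f1. Of 10398 genes tested in both tables, a share of 54.9% was lower, with a median of -0.04. The 20 mitosis genes listed for context were also all lower (median -1.36), and 10 housekeeping genes had a median of -0.18. Myotube markers were higher in pHAN_GFP. The construct, the table and any difference in culture cannot be told apart here, and in bulk RNA fewer cells in S phase and less RNA per cell cannot be told apart either.

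**Figure D1:**
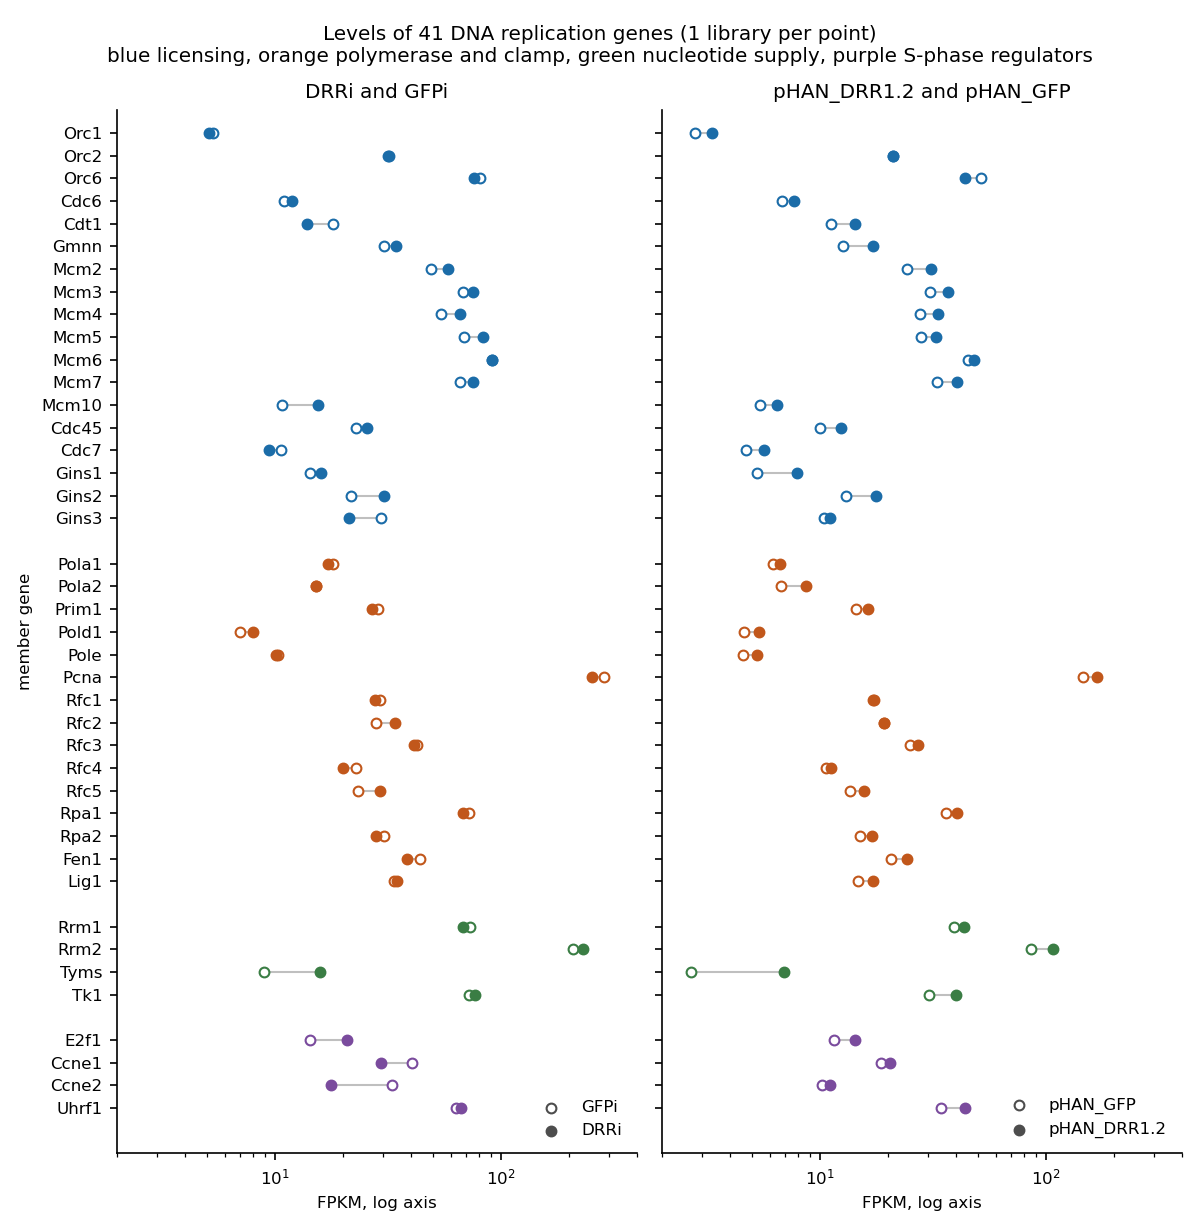
FPKM on a log axis of the 41 members in DRRi (filled) and GFPi (open) on the left, and in pHAN_DRR1.2 (filled) and pHAN_GFP (open) on the right, with 1 library per point and role groups in colour. Pcna and Rrm2 lie furthest right in both panels, and in the right panel filled points lie to the right of open ones for all members but Orc6.

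The first comparison addressed what RNAi against the DRR does to these genes. Changes are given as log2 of treated over control after adding 1 FPKM to each, which understates changes of weakly expressed genes. Of the 41 members, 23 lay above 0 in DRRi, where 53.5% of all genes tested did, and the median was 0.01 against 0.02 over all genes. At 1.5-fold or more, 1 member was higher, thymidylate synthase Tyms, where 4.66% of all genes were, and 1 was lower, the cyclin gene Ccne2, where 3.5% were. A count of 1 among 41 genes is near these background shares. Of the members' 50 coding sequences, 0 had a q-value under 0.05 in the authors' deposited table, where 0.729% of all genes were called higher and 0.609% lower, and the members' lowest q was 0.758.

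The second comparison addressed what the DRR construct does. In pHAN_DRR1.2, 40 of 41 members lay above 0, where 55.6% of all genes tested did, with a median of 0.20 against 0.02 over all genes. The differences were small: 1 member, Tyms, was higher at 1.5-fold or more, where 1.38% of all genes were, and 0 were lower, where 0.654% were. Under a scaling of both libraries to the same summed FPKM, 37 members lay above 0, against 45.6% of all genes. Tyms was also the 1 member with a q-value under 0.05 in the authors' deposited table (0.00584), where 1.01% of all genes were called higher and 0.627% lower.

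Across both tables, 23 members lay above 0 in both, 17 were below 0 in DRRi and above 0 in pHAN_DRR1.2, and Orc6 was below 0 in both. Of the genes tested in both tables, 31.8% lay above 0 in both and 23.9% had the second pattern.

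**Figure D2:**
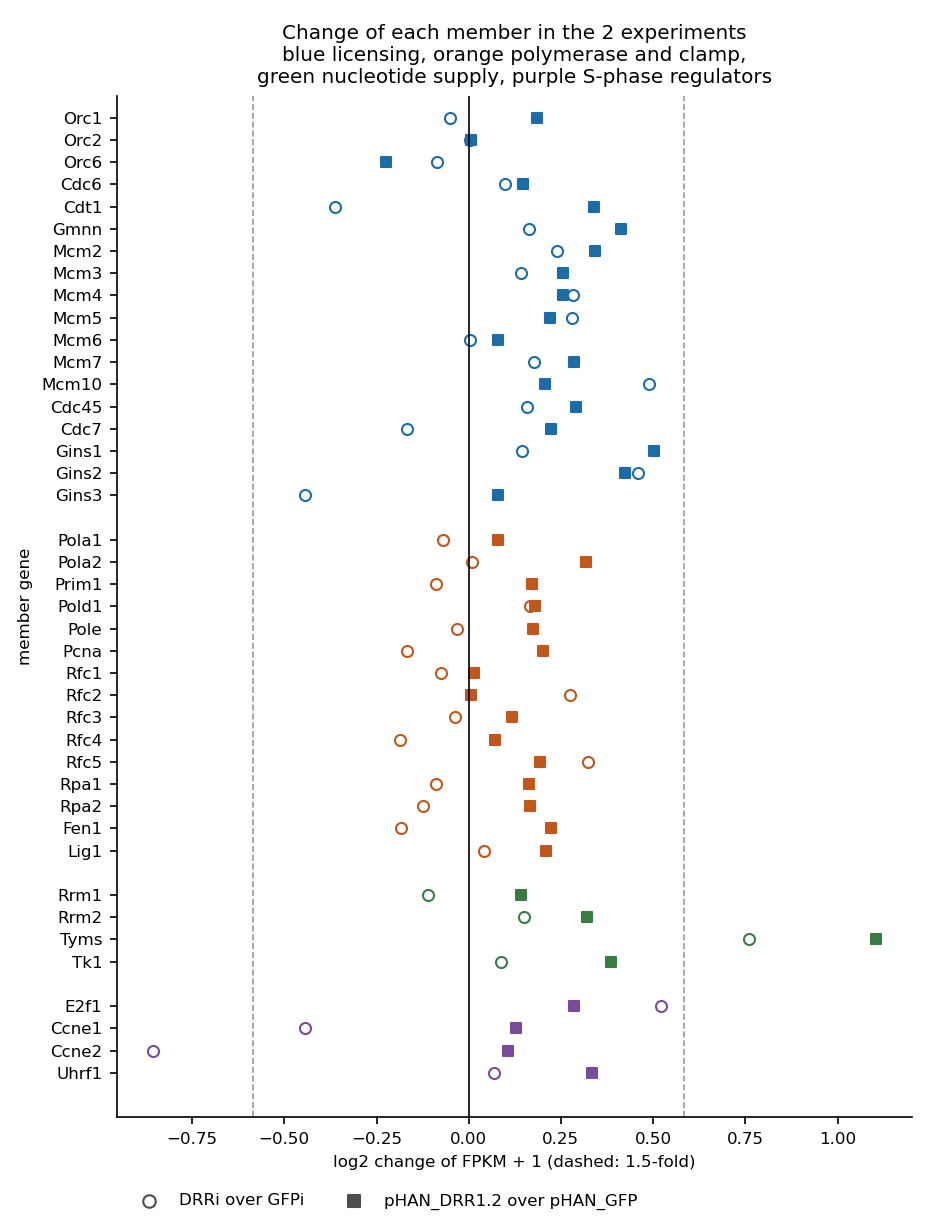
Log2 change of FPKM + 1 for each member in DRRi over GFPi (open circles) and in pHAN_DRR1.2 over pHAN_GFP (filled squares), coloured by role, with dashed lines at 1.5-fold. Tyms lies past the right line in both, Ccne2 past the left line in DRRi, and every square but that of Orc6 is right of 0.

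**Figure D3:**
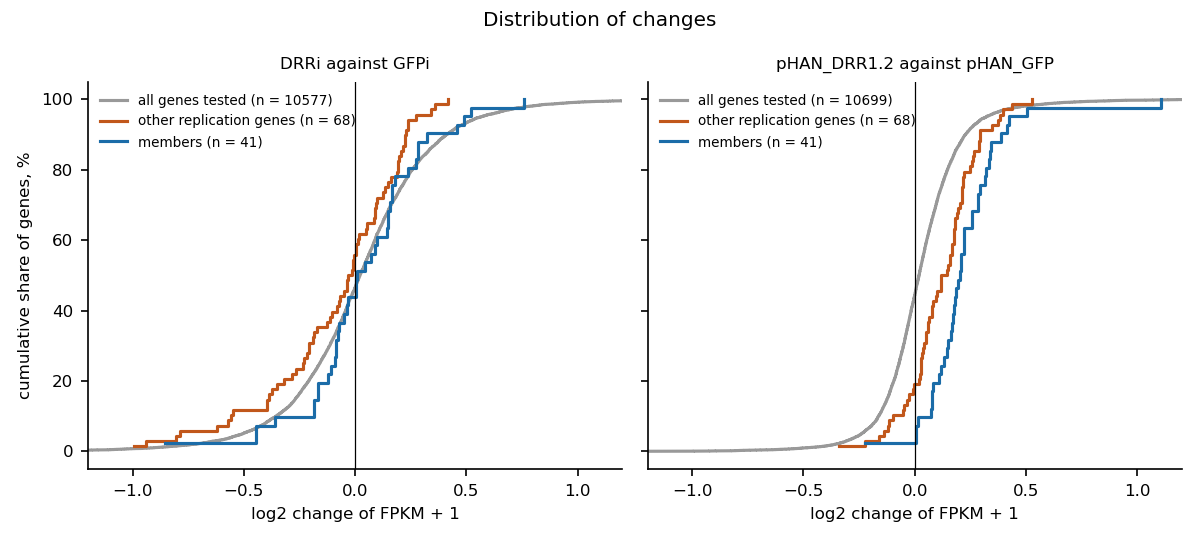
Cumulative share of genes by log2 change for the 41 members, the 68 other replication genes and all genes tested, in DRRi against GFPi (left) and pHAN_DRR1.2 against pHAN_GFP (right). On the left the members' curve runs close to that of all genes, with medians of 0.01 and 0.02, and on the right it is shifted to a median of 0.20.

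Among the licensing genes, 13 of 18 lay above 0 in DRRi (median 0.14) and 17 of 18 in pHAN_DRR1.2 (median 0.24). The Mcm2 to Mcm7 helicase subunits lay above 0 in both tables, Mcm6 in DRRi by only 0.003 and not after re-centring (-0.019). Their levels lay close together, at 58.2 to 91.4 FPKM in DRRi, 49.2 to 91.2 in GFPi, 30.9 to 48.0 in pHAN_DRR1.2 and 24.2 to 45.4 in pHAN_GFP, with Mcm2 lowest and Mcm6 highest in each library. Mcm6 stood at 91.4, 91.2, 48.0 and 45.4 FPKM in that order, the smallest differences of the 6 (log2 0.00 and 0.08). Mcm2 stood at 58.2, 49.2, 30.9 and 24.2 FPKM (0.24 and 0.34). Mcm4 stood at 66.1, 54.1, 33.3 and 27.7 FPKM (0.28 and 0.26), and Mcm7 at 75.1, 66.3, 40.3 and 32.8 (0.18 and 0.29). The remaining subunits Mcm3 and Mcm5 had changes between 0.14 and 0.28.

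Promoters of the helicase subunits Mcm5 and Mcm6, of Orc1, the largest subunit of the origin recognition complex, and of the helicase loader Cdc6 are printed because they hold the E2F words counted next. They are the 250 bases before the RefSeq gene start in GRCm38.p6, 5′ to 3′ on the gene's strand. E2F words are in capitals, and CCAAT matches are left in lower case here and in the promoters printed further below. Their coordinates are chr1:128359706-128359955 on the minus strand for Mcm6, and on the plus strand chr8:75109259-75109508 for Mcm5, chr4:108579204-108579453 for Orc1 and chr11:98907901-98908150 for Cdc6.
Mcm6: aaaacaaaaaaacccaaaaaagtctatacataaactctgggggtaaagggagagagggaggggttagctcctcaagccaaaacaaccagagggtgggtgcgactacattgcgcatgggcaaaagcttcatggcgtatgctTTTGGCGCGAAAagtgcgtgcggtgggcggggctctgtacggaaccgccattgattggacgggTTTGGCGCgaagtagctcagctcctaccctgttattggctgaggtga
Mcm5: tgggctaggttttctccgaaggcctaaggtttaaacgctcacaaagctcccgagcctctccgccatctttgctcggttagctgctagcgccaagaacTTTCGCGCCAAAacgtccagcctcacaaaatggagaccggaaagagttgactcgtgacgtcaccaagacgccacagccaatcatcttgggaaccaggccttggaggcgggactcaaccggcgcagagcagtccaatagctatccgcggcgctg
Orc1: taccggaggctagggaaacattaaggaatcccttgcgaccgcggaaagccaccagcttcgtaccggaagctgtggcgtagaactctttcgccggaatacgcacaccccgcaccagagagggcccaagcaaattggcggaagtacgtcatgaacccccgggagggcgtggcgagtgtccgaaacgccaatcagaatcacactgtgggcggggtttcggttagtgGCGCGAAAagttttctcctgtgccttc
Cdc6: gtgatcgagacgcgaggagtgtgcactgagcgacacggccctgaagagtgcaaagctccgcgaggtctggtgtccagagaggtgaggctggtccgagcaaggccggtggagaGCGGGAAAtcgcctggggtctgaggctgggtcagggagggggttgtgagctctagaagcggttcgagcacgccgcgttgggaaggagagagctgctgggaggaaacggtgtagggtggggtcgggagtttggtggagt

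The words searched were TTTCCCGC, TTTCGCGC, TTTGCCGC and TTTGGCGC for E2F, CCAAT, and the E-box CAGCTG, each on both strands, from 250 bases before to 50 after a start. RefSeq promoters were matched for 34 of 41 members. An E2F word was present for 13 of 34 (38.2%), against 4.99% of 7841 genes tested and 2.6% of all 27025 genes with a promoter. By role it was present for 8 of 14 licensing genes (57.1%), 4 of 13 polymerase and clamp genes (30.8%), 0 of 4 nucleotide supply genes and Uhrf1 among 3 S-phase regulators. E2f1 is counted among those without a word. The stretch listed for it holds a long open reading frame, so its start may lie inside the gene. The region upstream of E2f1 may thus not have been searched. Mcm6 carried 3 matches upstream of its start and Mcm5 carried 2. In both genes a pair overlaps on opposite strands in a run of 12 bases. Of 56 other replication genes 32.1% held an E2F word. CCAAT was present for 61.8% of members against 43.6% of genes tested, and CAGCTG for 14.7% (Cdc6, Orc1, Pola2, Rpa1 and Rrm2) against 17.6%. The E-boxes of Cdc6, Orc1 and Rrm2 lie after the start and outside the printed stretch. A match is a description of the letters, not a binding site.

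Around the origin, Orc1 stood at 5.09, 5.31, 3.32 and 2.79 FPKM in DRRi, GFPi, pHAN_DRR1.2 and pHAN_GFP (log2 -0.05 and 0.19). Cdc6 stood at 11.9, 11.0, 7.63 and 6.80 FPKM (0.10 and 0.15). Cdt1, which loads the helicase with Cdc6, stood at 13.9, 18.1, 14.3 and 11.1 FPKM (-0.36 and 0.34). Cdt1 was thus lower in DRRi than in its control and higher in pHAN_DRR1.2 than in its control, while its inhibitor was above its control in both. That inhibitor, geminin (Gmnn), stood at 34.2, 30.4, 17.2 and 12.7 FPKM (0.16 and 0.41).

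The firing factors differed in direction in DRRi. Mcm10, which helps the helicase open, stood at 15.4, 10.7, 6.42 and 5.43 FPKM (0.49 and 0.21). The kinase gene Cdc7 stood at 9.40, 10.7, 5.67 and 4.71 FPKM (-0.17 and 0.22), and the helicase cofactor Cdc45 at 25.6, 22.8, 12.4 and 9.97 (0.16 and 0.29). Of the GINS subunits, Gins2 and Gins3 differed in direction in DRRi although their proteins work in 1 complex. Gins2 stood at 30.2, 21.7, 17.7 and 13.0 FPKM (0.46 and 0.42), at a locus shared with the symbol Gse1. Gins3 stood at 21.3, 29.4, 11.1 and 10.4 FPKM (-0.44 and 0.08). Gins1 stood at 16.0, 14.4, 7.91 and 5.28 FPKM (0.15 and 0.50). Its change in pHAN_DRR1.2 was that of a second coding sequence at 2.41 against 0.000428 FPKM, and the main coding sequence alone gave 0.05.

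Orc6, the smallest subunit of the origin recognition complex, was the exception in pHAN_DRR1.2. It stood at 75.9, 80.6, 43.7 and 51.3 FPKM (-0.08 and -0.23). The table splits it into 2 coding sequences, and the more abundant one was at 41.5 against 39.2 FPKM in pHAN_DRR1.2 (0.08). The other was at 2.29 against 12.1 FPKM (p 0.000818 and q 0.0554 in the authors' deposited table). The direction of Orc6 in this table therefore depends on the minor coding sequence, which was at 10.5 and 11.9 FPKM in the RNAi libraries.

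In the polymerase and clamp group, 5 of 15 genes lay above 0 in DRRi (median -0.07) and 15 of 15 in pHAN_DRR1.2 (median 0.17). Changes stayed between -0.19 and 0.32 in DRRi and between 0.01 and 0.32 in pHAN_DRR1.2. The sliding clamp gene Pcna stood at 254, 286, 168 and 146 FPKM in DRRi, GFPi, pHAN_DRR1.2 and pHAN_GFP (-0.17 and 0.20). The polymerase catalytic subunits were far less abundant. Pold1 of polymerase delta stood at 7.98, 7.0, 5.35 and 4.61 FPKM (0.17 and 0.18), Pole of polymerase epsilon at 10.1, 10.4, 5.27 and 4.55 (-0.03 and 0.18), and Pola1 of polymerase alpha at 17.2, 18.1, 6.63 and 6.22 (-0.07 and 0.08). FPKM is per length, so Pcna can be set against Pole within a library.

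Pola2 and the primase gene Prim1 were close to their controls in DRRi. Pola2, the second subunit of polymerase alpha, stood at 15.2, 15.1, 8.64 and 6.74 FPKM (0.01 and 0.32), the largest change of the group in pHAN_DRR1.2. Prim1 stood at 26.8, 28.5, 16.3 and 14.4 FPKM (-0.09 and 0.17). The other primase gene, Prim2, is not a member and had changes of 0.19 and 0.21. The 5 subunits of the clamp loader ran from 10.6 FPKM (Rfc4 in pHAN_GFP) to 42.3 (Rfc3 in GFPi), with 2 of 5 above 0 in DRRi and 5 of 5 in pHAN_DRR1.2. Rfc5 stood at 29.3, 23.2, 15.6 and 13.5 FPKM (0.32 and 0.19) and Rfc2 at 34.1, 28, 19.3 and 19.2 (0.27 and 0.01). Rfc4, whose locus is shared with Eif4a2, stood at 19.9, 22.8, 11.2 and 10.6 FPKM (-0.19 and 0.07). Rfc1 and Rfc3 had changes between -0.07 and 0.12.

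Of the genes that protect single strands and join fragments, Rpa1, the large subunit of the single-strand binding protein, stood at 68.0, 72.4, 40.3 and 35.9 FPKM (-0.09 and 0.16). Rpa2 had changes of -0.12 and 0.17. The flap nuclease gene Fen1 stood at 38.6, 44, 24.2 and 20.6 FPKM (-0.18 and 0.22), and the ligase gene Lig1 at 34.8, 33.8, 17.2 and 14.7 (0.04 and 0.21). None of the 4 differed from its control by 1.5-fold in either table.

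Nucleotide supply held Rrm2, the most abundant member after Pcna, and Tyms, the member furthest above 0 in both tables. Rrm2, the S-phase subunit of ribonucleotide reductase, stood at 230.3, 208, 108 and 86.1 FPKM in DRRi, GFPi, pHAN_DRR1.2 and pHAN_GFP (0.15 and 0.32). Tk1, thymidine kinase, stood at 77.1, 72.4, 39.8 and 30.2 FPKM (0.09 and 0.39), at a locus shared with Afmid. Rrm1, the partner of Rrm2, had changes of -0.11 and 0.14. The group lay above 0 for 3 of 4 genes in DRRi (median 0.12) and 4 of 4 in pHAN_DRR1.2 (median 0.35).

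Tyms makes thymidylate for DNA synthesis. It stood at 15.8 FPKM in DRRi and 8.93 in GFPi, 1.77-fold higher (log2 0.76), and at 6.91 in pHAN_DRR1.2 and 2.68 in pHAN_GFP, 2.58-fold higher (log2 1.10). The treated library was the higher one in both tables. In the authors' deposited table its p-value was 0.326 in DRRi and 4.36e-05 in pHAN_DRR1.2. With a minimum mean of 5 FPKM Tyms drops out of the second comparison, and 0 members then passed 1.5-fold. Its promoter, which holds none of the words searched, lies at chr5:30073626-30073875 on the minus strand of GRCm38.p6 and is printed because Tyms was the member past 1.5-fold in both tables.
Tyms: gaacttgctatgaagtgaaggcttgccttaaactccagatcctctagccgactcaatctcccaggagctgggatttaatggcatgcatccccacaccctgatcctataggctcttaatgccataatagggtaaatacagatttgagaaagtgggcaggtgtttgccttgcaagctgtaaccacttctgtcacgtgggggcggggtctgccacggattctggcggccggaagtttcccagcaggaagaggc

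The 4 S-phase regulators were divided in DRRi, with 2 above and 2 below 0 (median -0.19), and all lay above 0 in pHAN_DRR1.2 (median 0.21). E2f1, the transcription factor that activates many of the other members, stood at 20.9, 14.3, 14.3 and 11.6 FPKM in DRRi, GFPi, pHAN_DRR1.2 and pHAN_GFP (0.52 and 0.28). Both E-type cyclin genes, which partner Cdk2 at S-phase entry, were lower in DRRi. Ccne1 stood at 29.5, 40.5, 20.4 and 18.5 FPKM (-0.44 and 0.13), and Ccne2 at 17.7, 32.8, 11.1 and 10.2 (-0.86 and 0.11). E2f1 and the E cyclins thus lay on opposite sides of 0 in DRRi. Uhrf1, which guides DNA methylation behind the fork, stood at 66.5, 63.3, 43.6 and 34.4 FPKM (0.07 and 0.33).

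For Ccne2 and Uhrf1 the sum over coding sequences hides opposite values. Ccne2 coding sequence P15516 was at 5.68 FPKM in DRRi and 22.7 in GFPi, while P23326 was at 12 and 10.1. The lower total of Ccne2 in DRRi therefore lies in 1 of its 2 coding sequences, whose p-value in the authors' deposited table was 0.123. Uhrf1 coding sequence P11399 was at 33.9 FPKM in DRRi and 11.1 in GFPi, and P21522 at 32.6 and 52.2. In pHAN_DRR1.2 and pHAN_GFP, P11399 was at 15.2 and 7.98 FPKM and P21522 at 28.4 and 26.4. P11399 made up 51.0% of Uhrf1 in DRRi, 17.5% in GFPi, 34.9% in pHAN_DRR1.2 and 23.2% in pHAN_GFP, so its share was higher in the treated library of both tables. In the authors' deposited tables its p-values were 0.088 in DRRi and 0.370 in pHAN_DRR1.2, and those of P21522 were 0.0633 and 0.858. Such shares also differed between the controls, where P15516 made up 69.3% of Ccne2 in GFPi and 37.6% in pHAN_GFP. How the authors divided reads between coding sequences of a gene is not given in the sources used here. Ccne2 also shares its locus with Ints8, and whether strand was used in the counting is not given either. Among the 32 members with a single coding sequence, 0 were lower at 1.5-fold in DRRi.

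**Figure D4:**
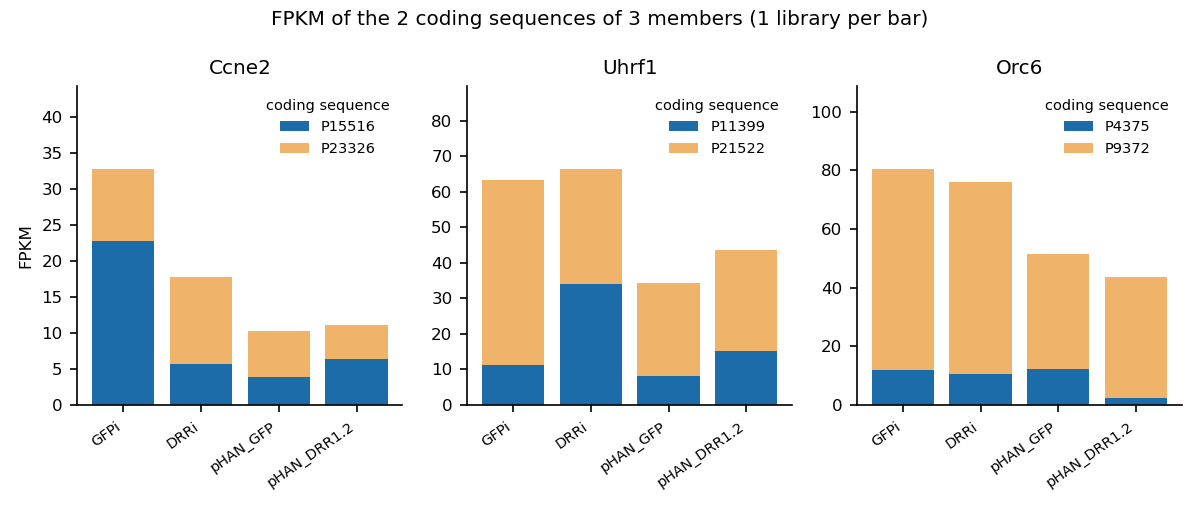
FPKM of the 2 deposited coding sequences of Ccne2, Uhrf1 and Orc6, stacked, in each of the 4 RNA libraries (1 library per bar). The blue part of Ccne2 is 22.7 in GFPi and 5.68 in DRRi, that of Uhrf1 is 11.1 in GFPi and 33.9 in DRRi, and that of Orc6 is 12.1 in pHAN_GFP and 2.29 in pHAN_DRR1.2.

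Another 68 replication genes were read from the tables for comparison, of 69 listed. In DRRi 0 were higher and 5 were lower at 1.5-fold, where 4.66% and 3.5% of all genes tested were. Above 0 lay 30 of 68 (median -0.02), where 53.5% of all genes did. The 5 were Cdc25a, the phosphatase that activates Cdk2, at 6.52 against 14.0 FPKM (-0.99), the transcription factor gene E2f2 at 16.1 against 31.9 (-0.94), the polymerase epsilon subunit Pole4 at 17.4 against 31.2 (-0.81), the histone chaperone Asf1a at 7.83 against 14.2 (-0.79), and Slbp, which binds histone mRNA, at 46.5 against 71.9 (-0.62). Of 17 other S-phase regulators 16 lay below 0 in DRRi (median -0.19). Some of these were close to 0, among them Tfdp1 (-0.003), E2f5 (-0.01), Rbl1 (-0.04) and E2f8 (-0.05). E2f2 was therefore below its control in the library where E2f1 was above it. The lowest q-value of the 68 in the authors' deposited table for DRRi was 0.0534, for E2f2.

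In pHAN_DRR1.2, 0 of the 68 passed 1.5-fold in either direction, where 1.38% of all genes tested were higher and 0.654% lower. Above 0 lay 55 of the 68 (median 0.13), where 55.6% of all genes did. Furthest from 0 were Rnaseh2c, a subunit of the enzyme that removes RNA primers and ribonucleotides, at 7.88 against 5.17 FPKM (0.52), the chromatin assembly factor gene Chaf1b at 13.1 against 9.44 (0.44), and the pocket protein gene Rb1 at 10.7 against 7.85 (0.40).

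The counts below stand beside these shares of all genes tested. In DRRi 53.5% lay above 0, 4.66% were higher at 1.5-fold and 3.5% were lower. In pHAN_DRR1.2 55.6% lay above 0, 1.38% were higher at 1.5-fold and 0.654% were lower. Of 20 genes of mitosis 0 passed 1.5-fold in either direction in either table. In DRRi 8 of 20 lay above 0 (median -0.02), with Mad2l1 at 44.8 against 63.8 FPKM (-0.50) and Top2a at 127 against 159 (-0.33). In pHAN_DRR1.2 20 of 20 lay above 0 (median 0.18), with Plk1 (0.39) and Aurkb (0.27) furthest. Beside these, p53 target genes were higher in DRRi, 13 of 15 at 1.5-fold (median 1.03), led by Eda2r (1.95) and Gdf15 (1.73). Cdkn1a, which inhibits cyclin-dependent kinases, was at 146 against 71.1 FPKM. In pHAN_DRR1.2 the p53 list had 0 of 15 past 1.5-fold (median 0.09). Of the D cyclins and CDK inhibitors, Ccnd2 was at 9.90 against 4.21 FPKM in DRRi (1.06) and Ccnd1 at 184 against 131 (0.49), with Ccnd2 the 1 of 7 genes past 1.5-fold. The medians of this list were 0.09 in DRRi and 0.10 in pHAN_DRR1.2, where 0 of 7 passed. Of 10 housekeeping genes 0 passed in either table, with medians of 0.08 and 0.05. Myotube markers moved with both comparisons, at 24.4 against 48.6 FPKM in DRRi and 354 against 151 in pHAN_DRR1.2, as did p53 targets with the first. Their part in the values of the replication genes was not tested.

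The ChIP-seq lists were then read at the members' loci. Of these, 5 were shared with another symbol (Gins2, Rfc4, Lig1, Tk1 and Ccne2), as were 1265 of 10876 loci of all genes tested. A peak at a shared locus cannot be assigned to the member alone. A MyoD peak lay within 10 kb of 17 of 41 loci in myoblasts, 41.5% (exact Clopper-Pearson 95% interval 26.3 to 57.9, which covers counting error only), where 45.3% of all genes tested had one. In myotubes it was 24 of 41, 58.5% (42.1 to 73.7), against 73.9%. A MyoG peak lay near 23 of 41, 56.1% (39.7 to 71.5), against 69.9%. The members' shares in myotubes were thus lower than those of all genes at this distance. Within 50 kb they were close to them, at 90.2% against 91.1% for MyoD and 85.4% against 88.7% for MyoG. Their loci were also shorter, with a median of 17.2 kb against 24.7 kb, and the part of locus length in these shares was not tested.

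MyoD stood near 17 members at both stages, near 7 in myotubes only (Orc1, Mcm4, Gins1, Fen1, Tyms, Ccne1 and Uhrf1) and near 0 in myoblasts only, where 43.4%, 30.5% and 1.93% of all genes had these patterns. Mcm10, Rfc2 and Ccne2 had a MyoG peak within 10 kb in myotubes and no MyoD peak within 10 kb at either stage. That was 7.32% against 5.08% of all genes. For Rfc2 this rests on the distance limit. Its nearest MyoG peak lay at 9.79 kb and its nearest MyoD myotube peak at 10.3 kb. The remaining 14 members had neither a MyoD nor a MyoG peak within 10 kb, 34.1% against 19.1% of all genes. They were Orc2, Orc6, Mcm3, Mcm5, Mcm6, Gins3, Pold1, Pole, Pcna, Rfc1, Rfc3, Rfc5, Rpa2 and Rrm1. Members with a MyoD or MyoG peak near them thus include Mcm2, Mcm4 and Mcm7 but not Mcm3, Mcm5 or Mcm6 of the same helicase.

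Peak scores are the authors' and are read only within a list, since no source used here defines them. The highest among the members lay 4.46 kb upstream of Rrm2, at chr12:25387509-25388654 of mm9, with a score of 3100 in MyoD myotubes. A peak at this place scored 1784 in MyoD myoblasts and 1716 in MyoG. Inside Mcm2 a MyoD myotube peak at chr6:88836028-88837078 scored 2739, with MyoG at 720. Pola2 had MyoD myotube peaks of 2183 at 4.42 kb beyond its 3′ end (chr19:5934920-5936127) and 1719 inside it. Ccne1 had a MyoD peak 4.08 kb upstream (chr7:38896589-38898222) that scored 1750.3 in myotubes, with an overlapping MyoG peak at 318 and no MyoD peak within 10 kb in myoblasts. Inside E2f1, at chr2:154391049-154391940, MyoD scored 1230.3 and an overlapping MyoG peak 1175, in a stretch with 4 gene loci within 10 kb. These strong peaks lay away from the starts, and distance does not say which gene a peak acts on.

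Peaks over the start itself were few. Of the 31 members with a locus of their own and a known strand, the start lay under a MyoD peak for Cdc6, Mcm2 and Rrm2 in myoblasts (9.68% against 7.84% of 6943 genes). In myotubes it did for Cdc6, Mcm2, Rpa1, Rrm2 and Tyms (16.1% against 20.7%). MyoG lay over the starts of Fen1, Mcm2 and Rpa1 (9.68% against 11.1%). The Tyms peak was weak, with a score of 89.9, and that of Cdc6 scored 138 in myoblasts and 161 in myotubes. Near Cdt1 a MyoD peak ended 0.104 kb before the start in myoblasts (score 164) and 0.084 kb before it in myotubes (score 607). The promoter of Rpa1, where MyoD scored 160.4 and MyoG 111 over the start, is printed with its CAGCTG in capitals. It lies at chr11:75348384-75348633 on the minus strand of GRCm38.p6.
Rpa1: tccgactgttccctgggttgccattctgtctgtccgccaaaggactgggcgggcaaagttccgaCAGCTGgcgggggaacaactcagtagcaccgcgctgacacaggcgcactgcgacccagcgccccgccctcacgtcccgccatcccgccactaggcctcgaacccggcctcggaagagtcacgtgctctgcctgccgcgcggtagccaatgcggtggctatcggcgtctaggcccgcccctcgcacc

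H3K4me1 marks enhancers and the flanks of active promoters, and is typically low at the start itself. A domain lay within 10 kb of all 41 members in myoblasts, where 95.7% of all genes had one, and of 39 in myotubes, where 94.5% did. Mcm3 and Lig1 had domains in myoblasts only, 4.88% of members against 2.67% of all genes. The share of the locus and its 10 kb flanks in a domain had a median of 15.9% in myoblasts and 13.5% in myotubes, against 17.5% and 19.7% over all genes, and it was wider in myotubes for 20 members (48.8%, against 54.0% of all genes) and narrower for 21. E2f1 had 9.43 kb covered in myoblasts and 19.8 kb in myotubes, Mcm2 had 11.1 and 21.6 kb, and Orc6 had 10.8 and 22.4 kb. The Orc6 domains were weak, with deposited folds of 1.66 and 1.66 in myoblasts and 1.64, 1.69 and 1.14 in myotubes. The last held 252 ChIP reads against 217 control reads. In the other direction Rpa1 went from 18.8 to 8.44 kb. In the window of Ccne2, at a locus shared with Ints8, the covered length went from 11.2 to 1.2 kb. Among the 36 members without a shared locus the share was wider in myotubes for 19 and narrower for 17.

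More member starts lay under an H3K4me1 domain in myotubes than in myoblasts. A domain covered the start of 3 of 31 members in myoblasts, 9.68% (2.04 to 25.8), where 23.8% of all genes had one, and of 13 in myotubes, 41.9% (24.5 to 60.9), where 22.4% did. It was gained by 10 members, where 7.59% of all genes gained one, and lost by 0, where 8.94% lost one. The 10 were the licensing genes Mcm2, Mcm6, Mcm10 and Cdc7, the polymerase and clamp genes Pola2 and Rfc3, the nucleotide genes Rrm2 and Tyms, and the regulators E2f1 and Uhrf1. Cdc6, Gins3 and Rfc5 were covered at both stages. Mcm2 shows the pattern: in myoblasts 1 domain ended 0.027 kb before the start and the next began 0.974 kb after it, and in myotubes 1 domain ran from 0.826 kb before to 3.57 kb after. At E2f1 a single myotube domain of 11200 bp held 449 ChIP reads against 119 control reads, and at Tyms one of 2800 bp held 69 against 32.

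The count depends on how a start is counted. Since several myoblast domains stopped just short of the start, a domain lay within 200 bp of it for 10 members in myoblasts and 13 in myotubes (4 gained and 1 lost). These were 32.3% and 41.9%, where all genes had 34.6% and 29.1%. Within 500 bp it was 17 and 19 members, 54.8% and 61.3% against 58.7% and 51.6% of all genes, with 7 gained and 5 lost. Measured instead as the share of the 1 kb around the start that lay in a domain, the members averaged 21.8% in myoblasts and 43.3% in myotubes, where all genes averaged 30.8% and 27.3%. This share was larger in myotubes for 14 of 31 members, where 18.3% of all genes had a larger share, and smaller for 6, where 27.2% had a smaller one. Starts flanked by domains within 2 kb on both sides and not covered numbered 15 in myoblasts (48.4% against 40.2% of all genes) and 5 in myotubes (16.1% against 30.9%). By role, the average share went from 23.0% to 45.3% in licensing genes and from 24% to 28% in the polymerase and clamp group. The other replication genes averaged 28.7% and 28.8% over 48 starts, and 16 mitosis starts 15.2% and 34.5%. Each stage has 1 ChIP sample, and all of these measures of the start were chosen after the data had been seen.

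**Figure D5:**
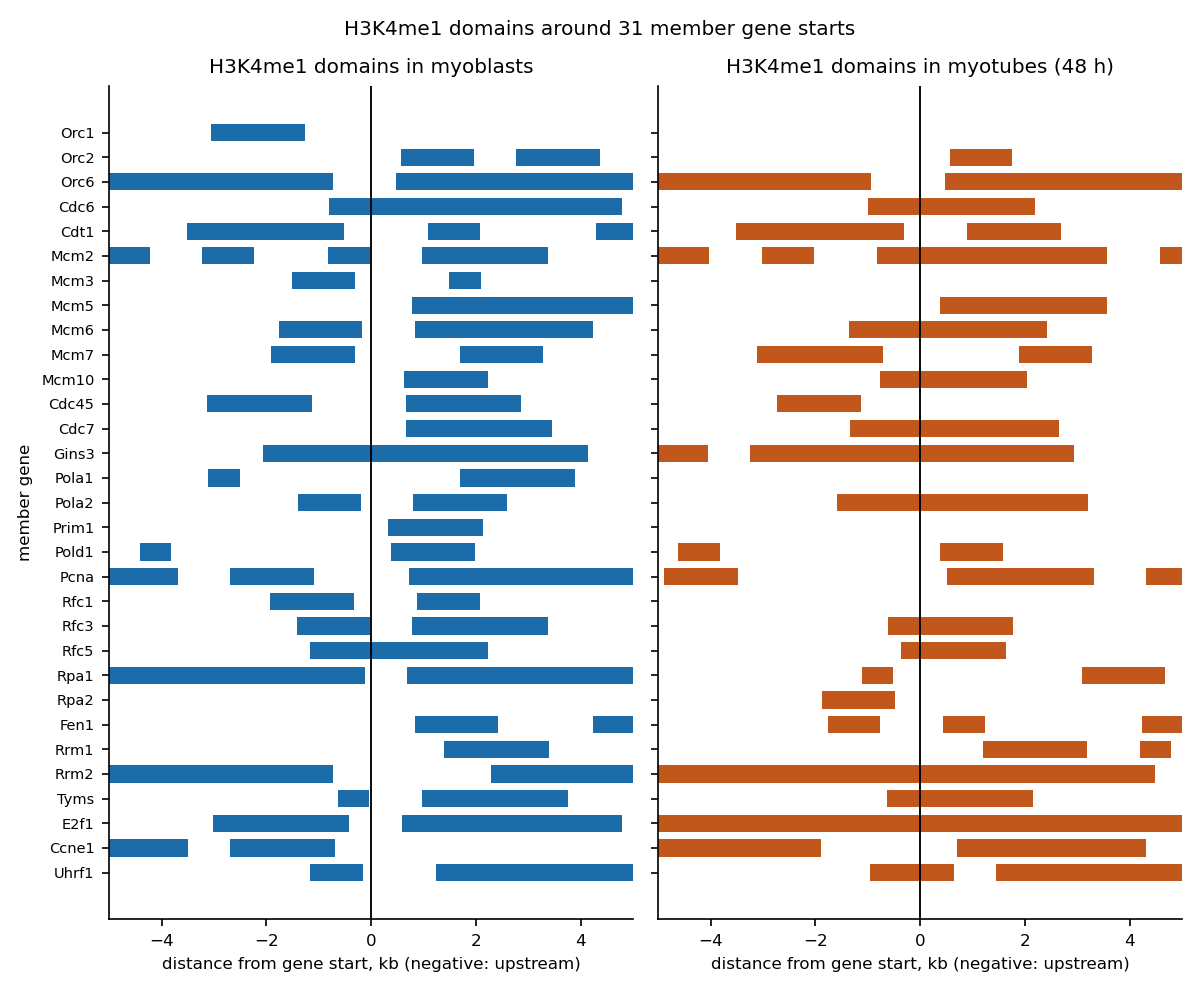
H3K4me1 domains (bars) within 5 kb of the starts of 31 members, as distance from the gene start in kb with upstream negative, in myoblasts (left) and myotubes at 48 h (right). Domains cross the start line for 3 members on the left and for 13 on the right, among them Mcm2, Rrm2 and E2f1.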

How the data were processed

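The authors deposited 2 tables of FPKM per coding sequence with p-values and q-values, per the file headers, and 5 peak lists. The submitters' processing notes name TopHat, SICER, bedtools and mm9, with no versions. Per the file headers, MACS called the peaks of both factors, each with a deposited score. For every H3K4me1 domain the authors give ChIP and control read counts and a fold. In the tables the treated conditions have other names than in the labels; the condition named for GFP was taken as the control. Whether the 2 runs named for each MyoD and MyoG sample were pooled is not given in the sources used here. The 2 ribosome-depleted samples were not used here.

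FPKM was summed per gene symbol. Log2 changes used a pseudocount of 1, and genes with a mean of at least 1 FPKM were kept (10577 and 10699). A locus is the span of a symbol's rows in the tables, and a start is its 5′ end on the RefSeq strand. Promoters came from RefSeq, GRCm38.p6, and no coordinates were converted. Named genes were members at 1.5-fold, the 5 furthest from 0 in each direction, the most and least abundant of each role, those with a MyoD or MyoG peak within 10 kb, and the extremes of the comparison lists. The members and lists were chosen with earlier results of these data known. Scripts used Python 3.11.15, numpy 2.4.6, pandas 2.3.3, scipy 1.17.1 and matplotlib 3.10.9, and were tested on simulated data. Alternatives tried were the pseudocount, the filter, the scaling, the choice of coding sequence, the peak distance, overlap and score, and single-sequence genes and unshared loci, both added after seeing the data.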

Additional observations from a re-analysis of the deposited data

How the results depend on the processing

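No paired analysis was possible because each group holds 1 library, and leaving out a replicate was not possible for the same reason. Of 552 alternative values of single members 7 moved by more than 0.1 on the log2 scale, and no member past 1.5-fold changed sign. Below 1.5-fold, 4 members changed sign under an alternative in DRRi and 5 in pHAN_DRR1.2. With the most abundant coding sequence alone, Uhrf1 went from 0.07 to -0.66 in DRRi, and in pHAN_DRR1.2 Ccne2 went from 0.11 to -0.36, Orc6 from -0.23 to 0.08 and Orc2 from 0.01 to -0.05. Re-centring and scaling to the same sum turned Orc2, Mcm6 and Pola2 in DRRi and Orc2, Rfc1 and Rfc2 in pHAN_DRR1.2, all with log2 changes between -0.04 and 0.01 throughout. Scaled to the same sum, 37 members lay above 0 in pHAN_DRR1.2. The count of members lower in DRRi at 1.5-fold was 2 with the most abundant coding sequence alone and 0 among genes with 1 coding sequence, an alternative with fewer genes, and the count of members higher in pHAN_DRR1.2 was 0 with a minimum mean of 5 FPKM, which removes Tyms. For the other replication genes, 8 were lower in DRRi when both libraries were scaled to the same sum, 1 was higher in pHAN_DRR1.2 with a pseudocount of 0.1, and 1 was lower with the most abundant coding sequence. The cause was not tested. At a distance of 50 kb the share of members near a peak was 70.7% for MyoD in myoblasts, 90.2% for MyoD in myotubes and 85.4% for MyoG (71.4%, 91.1% and 88.7% of all genes). With peaks above the median score of each list it was 24.4%, 39.0% and 36.6% (28.1%, 52.5% and 47.3%), and 73.2% for H3K4me1 at both stages (75.8% and 81.3%). With overlap of the locus it was 36.6% for MyoD in myotubes and 26.8% for MyoG (57.2% and 50.7%). The number of reads per RNA library is unknown, which limits what can be said of weakly expressed members such as Orc1.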
